A study of Arabidopsis thaliana with 18 samples.

Results

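The subject here is a set of 107 probe sets of the Arabidopsis ATH1 array whose signal in roots was higher 1 day after an osmotic treatment while it had stood close to the mock level during the treatment itself. A probe set entered the set when its mean in day 11 roots exceeded its mean in mock roots by at least 0.7 on the log2 scale and its mean in osmotic roots lay within 0.4 of the mock mean. Of 22746 probe sets that were not manufacturer's controls, 107 met both conditions, or 0.470%. The members were chosen by the group means of these same root arrays, so every root value of a member is a description of what was chosen, and no test is attached to it. Counts of limma calls in roots are given only for genes that are no members. Comparisons between leaf groups were not used in the choice and are tested.

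All plants were wild type of the accession Columbia-0, raised hydroponically on rock wool in MGRL medium. Day 11 plants had been given 0.3 M mannitol in that medium for 3 h in the light and then returned to medium without mannitol for 1 day before they were sampled. Osmotic plants were sampled after the 3 h of mannitol, and mock plants received no mannitol. Roots and leaves gave 3 biological replicates per group, so 18 arrays formed 6 groups, and this number limits the precision of every difference. The labels count osmotic and mock plants as 10 days and the later plants as 11 days, whereas the treatment description speaks of plants 30 days old; the cause of that mismatch is not given. There were no mock plants at day 11, so recovery, 1 more day of age and the second change of medium cannot be told apart.

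Mannitol in the medium lowers the water potential around the root. Roots first meet this by losing water and turgor, and the early transcript response includes abscisic acid signalling, osmolyte synthesis and protective proteins. Once the osmotic load is removed, water uptake and growth resume, stored proline is broken down, and transporters, wall enzymes and root secondary metabolism may be adjusted again. Roots are also the site of nitrate uptake and of many specialised metabolites and small secreted proteins that face soil microbes.

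The organ labels were checked against marker genes. Of 10 leaf markers 5 were measured by a dedicated probe set (RCA, SBPASE, PRK, PSAE-1 and PSBW, all of photosynthesis). The log2 of their summed level was 7.34 to 7.81 in day 11 roots, 7.18 to 7.67 in osmotic roots and 7.24 to 7.95 in mock roots, against 14.77 to 15.22 over all leaf arrays. Of 10 root markers 2 were measured, the root hair expansins EXPA7 and EXPA18, with 9.86 to 9.93 in day 11 roots, 9.95 to 10.41 in osmotic roots and 9.81 to 10.30 in mock roots, against 5.41 to 5.81 in leaves. Both lists separated the organs. The leaf markers overlapped between all root groups, whereas the root markers were lower in every day 11 root array than in every osmotic root array and overlapped with mock roots. The part of this in the results was not tested. Within a group, arrays correlated at 0.9867 to 0.9947 across probe sets, which are not independent replicates. In whole organs, more RNA per cell and more cells of one type cannot be told apart.

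The set was a minority of what was higher at day 11. In all, 514 probe sets reached a root difference of 0.7 between day 11 and mock, and 366 of them lay more than 0.4 above mock already in osmotic roots, while 41 lay more than 0.4 below. The 107 members were the remaining 20.8%. Their difference from mock at day 11 had a median of 0.91 and ran from 0.71 to 3.34. It was at least 1, a doubling, in 41 members and at least 2 in 9. The difference between osmotic and mock roots had a median of 0.11 and was above 0 in 73 members and below 0 in 34. Over all probe sets the median difference from mock was -0.01 in day 11 roots and -0.01 in osmotic roots.

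**Figure D1:**
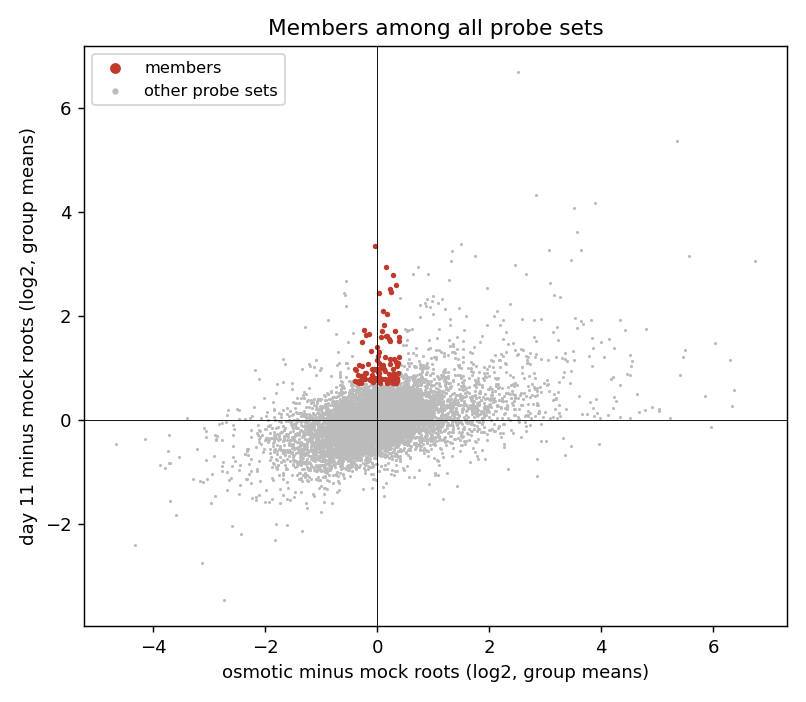
Each point is a probe set, with the difference of group means (log2) between osmotic and mock roots on the horizontal axis and between day 11 and mock roots on the vertical axis, 3 arrays per group. The 107 members, in red, form the column above 0.7 and within 0.4 of zero on the horizontal axis, and reach 3.34.

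The edges of the set are continuous with their surroundings. Just inside the rise threshold lay AT1G50580, a glycosyltransferase, and probe set 264507_at, both 0.71 above mock, and just outside lay AT5G57120 and probe set 266684_at, both 0.70 above mock after rounding. At the upper edge of the osmotic window, probe sets 247266_at (0.40) and 259758_s_at (0.39) were inside, while AT2G19780 (0.40, a rounded value above the limit) and the plastid gene rpoA (0.41) were outside. At the lower edge, AT1G29660 and AT4G02800 (both -0.40) were inside, while AT1G53070 (-0.43) and probe set 262109_at (-0.45) were outside.

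The platform annotation paired 58 of the members with exactly 1 gene, 5 with several genes and 44 with none. Of the 58 genes, 53 are nuclear and 5 are encoded by the plastid. The nuclear genes are spread over all chromosomes, with 10, 9, 12, 9 and 13 on chromosomes 1 to 5. Only the 58 are named below by gene, and the other 49, which include 5 of the 10 largest differences, are named by probe set. Their median differences did not set them apart, at 0.91 for members with 1 gene and 0.91 for the others.

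Transport and supply of nitrogen and carbon accounted for 4 named members, among them some of the largest differences. AT3G45680 belongs to the NPF family of nitrate and peptide transporters and is known as NPF2.3, a nitrate exporter of the root stele. Its log2 values were 9.83, 10.83 and 10.16 in day 11 roots, 8.35, 8.53 and 6.74 in osmotic roots and 8.07, 7.53 and 7.90 in mock roots. Every day 11 array lay at least 1.30 above every other root array, and the day 11 mean was 2.44 ± 0.33 above mock (difference ± SE of the limma model, here and below), or 5.43-fold. In leaves it read 5.83 to 6.31 at day 11, 6.18 to 6.55 in osmotic and 6.20 to 6.39 in mock plants. ASPGB1, an asparaginase that releases ammonium from asparagine, read 9.83, 10.18 and 10.54 in day 11 roots, 7.77, 9.26 and 7.67 in osmotic roots and 8.34, 8.40 and 8.63 in mock roots. The day 11 arrays did not overlap the others, and osmotic replicate 2 stood above the other osmotic arrays. The day 11 mean was 1.72 ± 0.29 above mock.

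The other members of this group were at lower levels in roots than in leaves. AT2G40460, another NPF transporter, read 6.50, 7.38 and 7.22 in day 11 roots, 6.13, 6.23 and 5.30 in osmotic roots and 5.94, 5.83 and 5.88 in mock roots, a difference of 1.15 ± 0.24 from mock. PPDK, pyruvate orthophosphate dikinase, which makes phosphoenolpyruvate and serves amino acid remobilisation, read 6.57, 6.24 and 6.52 in day 11 roots, 4.98, 6.22 and 5.50 in osmotic roots and 5.20, 5.48 and 5.92 in mock roots. Its day 11 arrays cleared osmotic replicate 2 by only 0.02, and the difference from mock was 0.91 ± 0.31. In day 11 groups the root mean of PPDK was 3.59 below its leaf mean.

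Specialised metabolism was the largest named group, with 14 genes, a median difference of 1.13 between day 11 and mock roots and a range of 0.71 to 2.09. AT5G12270, a 2-oxoglutarate-dependent dioxygenase family gene, led it with 7.10, 8.34 and 7.42 in day 11 roots, 5.71, 6.09 and 5.10 in osmotic roots and 5.53, 5.45 and 5.60 in mock roots. All day 11 arrays lay at least 1.00 above the rest, and the difference from mock was 2.09 ± 0.30. AT1G24430, an acyltransferase of the BAHD family, whose enzymes acylate alcohols and amines, read 9.03, 9.60 and 9.28 in day 11 roots, 7.75, 8.46 and 7.38 in osmotic roots and 7.69, 7.59 and 7.80 in mock roots (difference 1.62 ± 0.23). AT5G43690, a sulfotransferase family gene, read 8.16, 9.19 and 8.41 in day 11 roots, 7.12, 7.48 and 6.58 in osmotic roots and 7.18, 6.67 and 7.12 in mock roots (difference 1.60 ± 0.29). In these 3 genes day 11 replicate 2 was the highest array and the day 11 arrays did not overlap the others.

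Within the same group, AT2G30670 and AT2G30660 are direct neighbours on the chromosome, a tropinone reductase-like dehydrogenase and a relative of the acyl-CoA hydrolase CHY1. AT2G30670 read 7.60, 8.36 and 7.83 in day 11 roots, 5.77, 5.97 and 6.90 in osmotic roots and 5.86, 5.74 and 6.69 in mock roots, 1.83 ± 0.29 above mock. AT2G30660 read 7.94, 7.51 and 8.44 in day 11 roots, 5.02, 6.49 and 7.08 in osmotic roots and 6.66, 5.39 and 7.35 in mock roots, 1.50 ± 0.45 above mock. Replicate 3 was the highest osmotic and the highest mock array of both neighbours, unlike most members.

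The set held 4 glycosyltransferases, enzymes that attach sugars to small molecules. UGT73B1, which acts on flavonoids, read 6.88, 7.31 and 7.84 in day 11 roots, 5.27, 6.48 and 6.09 in osmotic roots and 5.68, 5.96 and 6.18 in mock roots, 1.40 ± 0.30 above mock. UGT88A1 differed from mock by 0.97 ± 0.27, and its day 11 arrays (6.80, 7.57 and 7.41) overlapped with osmotic replicate 2 at 7.12. AT2G16890 differed by 0.80 ± 0.19 with a slight overlap, and AT1G50580 by 0.71 ± 0.22 without overlap. The berberine bridge enzyme-like oxidases AT1G30760 and AT5G44390 differed from mock by 1.17 ± 0.21 and 1.08 ± 0.22.

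The remaining members of this group were AT1G19540 (isoflavone reductase-like, 0.94 ± 0.36), AT5G37970 (a SABATH methyltransferase, 0.78 ± 0.13) and AT3G25810 (a terpene synthase, 0.76 ± 0.16). The last 2 were dim. AT5G37970 read 3.50 to 4.20 in day 11 roots, 2.94 to 3.24 in osmotic roots and 2.89 to 3.20 in mock roots, and AT3G25810 read 3.72 to 4.56 in day 11 roots, 3.55 to 3.92 in osmotic roots and 3.26 to 3.47 in mock roots. The lower quartile of an array, taken over all probe sets, was at most 4.50. Across the set, 13 members had a mock root mean below that level, and 5 of them stayed below it in all 6 groups.

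Small secreted, lectin and defence-type proteins made up 6 members. AT2G43535 and AT2G43550 are defensin-like trypsin inhibitor genes of one cluster, with 1 gene between them. AT2G43535 read 9.75, 9.87 and 10.44 in day 11 roots, 8.73, 9.11 and 7.87 in osmotic roots and 8.51, 8.56 and 8.15 in mock roots, 1.61 ± 0.29 above mock, with the day 11 arrays clear of the others. AT2G43550 read 8.13, 8.88 and 8.95 in day 11 roots, 8.17, 7.75 and 7.20 in osmotic roots and 7.59, 7.69 and 7.51 in mock roots, 1.06 ± 0.23 above mock, and day 11 replicate 1 fell inside the osmotic range. AT2G18370, a lipid transfer protein, read 11.07, 11.54 and 10.83 in day 11 roots, 9.69, 10.48 and 9.41 in osmotic roots and 9.70, 9.50 and 9.68 in mock roots, 1.52 ± 0.24 above mock. It was bright in roots and near background in leaves, with a root mean 6.95 above the leaf mean in day 11 plants.

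JAL33, a jacalin-related lectin that binds sugars, was the brightest named member in day 11 roots. It read 11.87, 12.65 and 12.54 in day 11 roots, 11.55, 12.16 and 10.88 in osmotic roots and 10.90, 11.21 and 11.33 in mock roots. Day 11 replicate 1 lay below osmotic replicate 2, so these groups overlapped, while the day 11 and mock arrays did not. The difference from mock was 1.21 ± 0.31, and that of osmotic roots from mock was 0.39, close to the edge of the window. The germin-like gene AT5G39130 (0.98 ± 0.24) and AT5G26130 of the PR-1-like CAP family (0.72 ± 0.32) owed much of their difference to day 11 replicate 2, which read 4.78 and 6.31 while the other day 11 arrays read 3.17 and 3.52 for AT5G39130 and 4.99 and 4.71 for AT5G26130.

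Hydrolases contributed 7 members, and 5 of the 7 had lower root than leaf levels in mock plants. In all 7 the day 11 root arrays lay above the other root arrays without overlap. That was so in 82 of the 107 members and in 5.34% of all probe sets. The rule used the same root arrays, so these counts only describe the members. AT4G16230, a GDSL-type lipase or esterase, read 6.31, 6.41 and 6.17 in day 11 roots, 5.48, 5.09 and 5.10 in osmotic roots and 4.83, 5.15 and 5.26 in mock roots, 1.22 ± 0.15 above mock. The related AT1G29660 and AT5G45670 differed from mock by 0.98 ± 0.35 and 0.83 ± 0.21. AT1G29660 read 8.12, 8.31 and 7.54 in day 11 roots, 7.33, 5.86 and 6.67 in osmotic roots and 6.59, 6.96 and 7.49 in mock roots, so day 11 and mock arrays were 0.05 apart at their nearest. The acid phosphatase family gene AT4G29270 (0.91 ± 0.19), the aspartyl protease AT2G39710 (0.80 ± 0.23), the serine carboxypeptidase-like gene scpl25 (0.74 ± 0.17) and the subtilase SBT1.3 (0.73 ± 0.19) completed the group.

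Cell wall and cytoskeleton genes numbered 6. AT4G29020, a glycine-rich protein gene, and AT5G09480, a hydroxyproline-rich glycoprotein gene, differed from mock by 1.09 ± 0.21 and 1.07 ± 0.19. AT5G09480 read 10.54, 10.39 and 10.49 in day 11 roots, 9.09, 9.77 and 8.83 in osmotic roots and 9.32, 9.43 and 9.45 in mock roots, with the day 11 arrays closely spaced and clear of the rest by 0.62. SP1L5, a relative of the microtubule protein SPIRAL1, differed by 0.97 ± 0.18, AT3G02120, a hydroxyproline-rich glycoprotein gene, by 0.87 ± 0.20 and NET1B, an actin-binding protein, by 0.72 ± 0.15. ATPMEPCRB, a pectin methylesterase, read 8.89, 8.86 and 8.85 in day 11 roots, but 7.94, 8.43 and 9.11 in osmotic roots and 8.36, 7.10 and 9.02 in mock roots. Replicate 3 of both earlier groups lay above all day 11 arrays, while mock replicate 2 lay far below the other mock arrays, and the difference from mock was 0.71 ± 0.39.

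Regulatory genes were few and of modest size. AT3G16280, an ERF/DREB-family transcription factor gene, read 6.34, 6.87 and 6.71 in day 11 roots, 5.05, 5.70 and 5.34 in osmotic roots and 5.48, 5.24 and 5.27 in mock roots, 1.31 ± 0.19 above mock, with the day 11 arrays clear of the others. SLY2, an F-box protein that promotes loss of DELLA repressors in gibberellin signalling, read 6.60, 7.42 and 6.62 in day 11 roots, 5.55, 5.44 and 5.49 in osmotic roots and 5.58, 5.87 and 6.01 in mock roots, 1.06 ± 0.20 above mock. The calmodulin-like gene AT3G59440 (0.78 ± 0.16), the C2H2 zinc finger gene AT3G53820 (0.77 ± 0.27) and the receptor-like kinase AT5G24010 of the CrRLK1L family (0.77 ± 0.20) were the others. All 5 had their highest day 11 value in replicate 2, and all 5 were higher in roots than in leaves in both day 11 and mock plants.

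The plastid genome supplied 5 members. psbI and psaI encode small photosystem subunits, ndhA a subunit of the NDH complex, petB cytochrome b6 and rps19 a ribosomal protein. Their differences from mock were 0.91 ± 0.20 for psbI, 0.76 ± 0.21 for ndhA, 0.74 ± 0.19 for petB, 0.74 ± 0.26 for psaI and 0.72 ± 0.21 for rps19. psbI read 7.62, 7.99 and 7.77 in day 11 roots, 7.49, 7.19 and 7.12 in osmotic roots and 6.83, 7.10 and 6.73 in mock roots. All 5 were highest in day 11 replicate 2, and 2 of the 5, psbI and petB, had no overlap with either other group.

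Of the plastid-encoded genes measured by a dedicated probe set, 64 were no members. Their median difference between day 11 and mock roots was 0.25, against 0.00 for all genes that were no members. In limma 12 of the 64 (18.8%) passed as higher and 0 as lower at an adjusted p below 0.05, against 2.9% and 3.8% of 13228 such genes, and 24 were higher and 0 lower at an unadjusted p below 0.05. Over all probe sets the shares in that comparison were 3.65% higher and 4.01% lower. In osmotic against mock roots 6 of the 64 (9.38%) were higher and 0 lower (10 and 2 without adjustment), with a median of 0.09, against 9.29% and 12.8% of the other genes and 10.6% and 13.7% of all probe sets. The summed log2 level of all 69 plastid-encoded genes, members included, was 14.10 to 14.50 in day 11 roots, 13.79 to 14.07 in osmotic roots and 13.62 to 13.80 in mock roots, so day 11 roots lay above both other groups, while osmotic and mock roots overlapped slightly. The 5 nuclear leaf markers, given above, overlapped between the 3 root groups.

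The last 11 genes have other roles or none given here. AT1G19530, of no role given here, had the largest difference of a named gene, 2.60 ± 0.62, and also the least regular one. It read 8.92, 10.00 and 9.84 in day 11 roots, 6.76, 9.28 and 5.90 in osmotic roots and 5.98, 7.76 and 7.21 in mock roots. Osmotic replicate 2 reached the day 11 range, and osmotic replicates 1 and 3 lay below the mock mean. AT1G64370 read 10.88, 11.91 and 11.81 in day 11 roots, 9.72, 10.61 and 8.68 in osmotic roots and 9.45, 9.76 and 9.26 in mock roots, 2.04 ± 0.33 above mock. In day 11 plants its root mean came within 0.13 of the leaf mean, against 1.76 below it in mock plants. The other 9 differed from mock by 0.74 to 0.97 and included the ubiquitin and ribosomal protein fusion gene AT1G23410 (0.79 ± 0.19) and the mitochondrial RNA-binding pentatricopeptide protein PPR336 (0.77 ± 0.14).

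**Figure D2:**
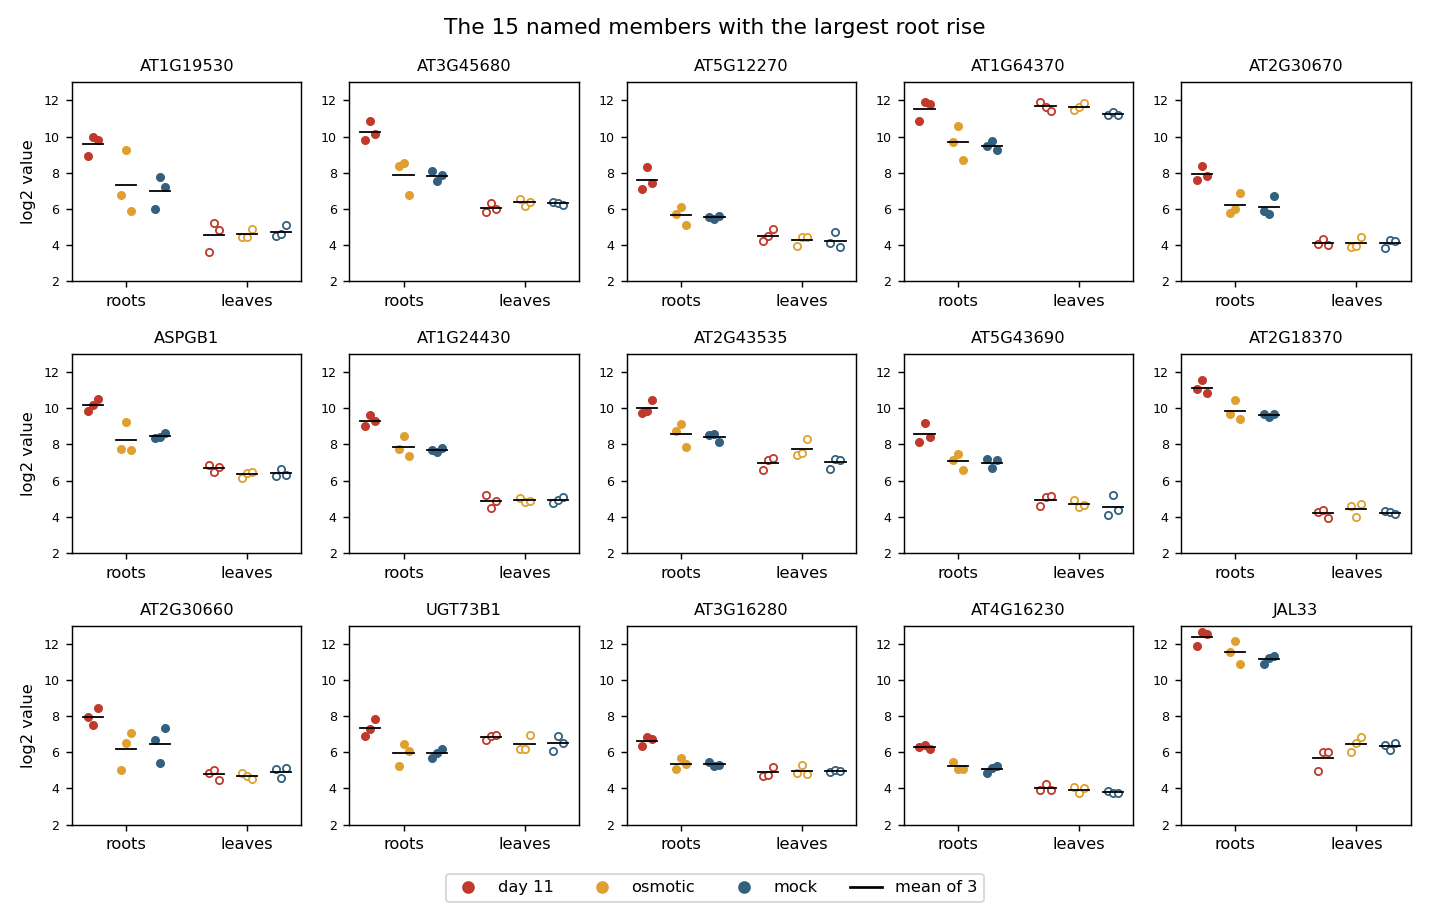
Log2 values of the 15 genes with the largest difference between day 11 and mock roots, 1 point per array, in day 11, osmotic and mock plants from left to right, filled for roots and open for leaves, with a bar at the mean of 3. Among the root groups, the day 11 mean stands highest in each panel, while osmotic roots spread around the mock level, most widely in AT1G19530 (5.90 to 9.28).

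The 3 largest differences of all belonged to probe sets without a single gene, ahead of the named AT1G19530 (2.60 ± 0.62). Probe set 249600_s_at, whose annotation lists several genes, read 7.39, 7.89 and 7.85 in day 11 roots, 4.20, 5.40 and 3.37 in osmotic roots and 4.47, 4.19 and 4.43 in mock roots. Its day 11 arrays stood 1.99 or more above all others, 3.34 ± 0.31 above the mock mean. Probe sets 260408_at (2.94 ± 0.39), 251229_at (2.79 ± 0.26), 261428_at (2.52 ± 0.31) and 259609_at (2.47 ± 0.31), all without a gene in the annotation, followed among probe sets of this kind. In none of these 5 did the day 11 arrays overlap the others, and 4 of them read near or below the array's lower quartile in mock roots (the exception was 261428_at, at 5.38 to 5.66).

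Over the whole set, the day 11 root arrays all lay above the mock root arrays in 101 members, above the osmotic arrays in 83 and above both in 82. Among all probe sets these shares were 15.9%, 18.6% and 5.34%. The choice of members used the same means, so nothing is read from the counts. The other 25 members overlapped with at least 1 earlier array. Taken array by array, 44 members had all day 11 arrays at least 0.7 above the mock mean, 53 had 2 such arrays and 10 had 1.

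In many members the near-mock mean in osmotic roots came from unequal arrays. All 3 osmotic arrays lay within 0.4 of the mock mean in 26 members. At least 1 osmotic array lay above that window in 64 members and at least 1 below it in 39. Shares over all probe sets are not given for these counts. The rule used the same osmotic and mock means, so the counts only describe the members. Osmotic replicate 2 was above and replicate 3 below the mock mean in 48 members, or 44.9%, against 14.5% of all probe sets, in or outside the window. Among the 41 members with a day 11 difference of at least 1, the number was 25. Only 7 members met both parts of the rule in every array: AT3G16280, AT5G44390, SLY2 and the probe sets 249684_s_at, 254818_at, 251394_at and 251093_at.

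Day 11 replicate 2 was also the highest of its group in 69 of the 107 members, or 64.5%, against 34.2% of all probe sets. The rule chose members by their day 11 root means, so these shares are not alike and only describe the members. The median distance of members from the mock mean was 0.79 in day 11 replicate 1, 1.15 in replicate 2 and 0.95 in replicate 3. On its own, replicate 1 placed 67 members at 0.7 or more above mock, replicate 2 placed 103 and replicate 3 placed 78. Replicates of different groups with the same number are not known to share plants, and 38 members were highest in replicate 2 of both the day 11 and the osmotic roots. The median SD of members was 0.315 in day 11 roots and 0.315 in osmotic roots, but 0.174 in mock roots. Over all probe sets it was 0.130, 0.156 and 0.124 in the same order. Without day 11 replicate 2, 101 probe sets met the rule and 77 of them were among the 107, and without osmotic replicate 3, 86 met it, 78 of them shared.

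**Figure D3:**
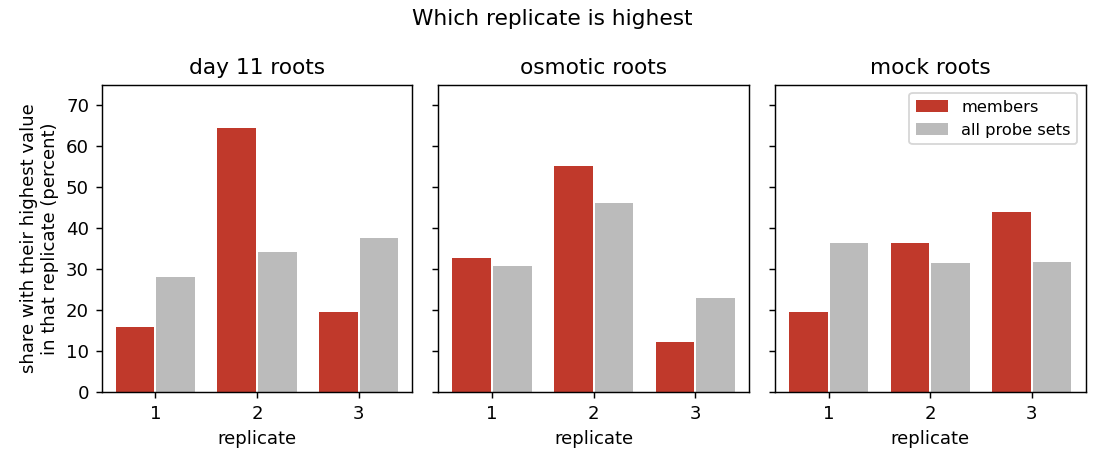
Share of the 107 members (red) and of all 22746 probe sets (grey) that had their highest value of the group in replicate 1, 2 or 3, in percent, for day 11, osmotic and mock roots. Members were highest in replicate 2 of day 11 roots in 64.5% of cases, against 34.2% of all probe sets. The root means chose the members, so the shares only describe them.

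Membership that did not hang on any 1 root array was narrower. Leaving out each of the 9 root arrays in turn, 26 of the 107 members met the rule every time, and 12 of these have 1 gene. They were AT5G12270, AT5G43690, UGT73B1, AT3G16280, AT4G16230, AT2G40460, AT4G29020, AT2G43550, PPDK, AT4G29270, AT3G48185 and AT3G03130. The transporter AT3G45680, ASPGB1 and AT1G24430 each failed the rule once in the 9 repeats, and AT1G19530 met it in 4.

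Members were not a uniform class of root genes before the treatment. In mock plants 63 of 107 were higher in roots than in leaves, with 34 (31.8%) higher by at least 1, against 14.6% of all probe sets. In the other direction 27 members (25.2%) were at least 1 lower in mock roots than in mock leaves, against 14.2% of all probe sets. In day 11 plants 81 members were higher in roots than in leaves, 66 of them by at least 1, and 18 members had changed sides, with the leaf higher in mock plants and the root higher in day 11 plants. The median mock root level of members was 6.46, close to the 6.67 of all probe sets. The mock root mean entered both parts of the rule, and the day 11 root mean entered one. The organ contrasts in mock and in day 11 plants thus use arrays that chose the members, and all these counts and shares are descriptive.

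Some members were far higher in roots. Beside AT2G18370 and JAL33, the excess of day 11 roots over day 11 leaves was 5.97 for AT5G09480, 5.09 for AT1G30760, 5.03 for AT1G19530 and 5.02 for AT4G29270. The day 11 leaf means of AT1G30760 (3.68), AT2G18370 (4.20) and AT5G09480 (4.50) lay in or at the lower quartile of the arrays and that of AT1G19530 (4.56) close to it, so for these genes the excess is best read as a lower bound. Others were leaf genes by level: petB, ndhA, AT1G64370, AT4G29020, AT1G29660 and UGT88A1 had the highest mock leaf means of named members. UGT88A1 read 10.86, 10.75 and 10.97 in day 11 leaves, 10.81, 10.70 and 11.03 in osmotic leaves and 10.86, 11.01 and 11.18 in mock leaves, over 3 log2 units above its root levels. Of all members, 19 (17.8%) were below the lower quartile in all leaf groups, against 25.2% of all probe sets.

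The first leaf comparison asked whether members also differed in leaves at day 11, and leaf values played no part in the choice of members. In the limma model, adjusted by Benjamini-Hochberg over all 22746 probe sets, 1 of 107 members was higher and 0 were lower in day 11 leaves than in mock leaves. That is 0.935%, against 0.721% of all probe sets called higher and 0.369% called lower, and at an unadjusted p below 0.05 there were 6 members higher and 6 lower. The median difference of members was -0.03, against 0.00 for all probe sets, and 47 members were above 0. Of the members 84.1% lay within 0.4 of the mock leaf mean, against 90.2% of all probe sets, and the median SE of a member's difference was 0.215. Without day 11 leaf replicate 2, 2 members were called lower.

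The member that rose in day 11 leaves was probe set 254818_at, without a gene in the annotation. It read 8.27, 8.00 and 8.20 in day 11 leaves, 5.77, 5.54 and 5.78 in osmotic leaves and 5.84, 6.02 and 6.34 in mock leaves, 2.09 ± 0.30 above mock (adjusted p = 0.0018). In roots it read 7.27, 5.53 and 5.68 at day 11, 4.69, 4.85 and 4.63 in osmotic and 5.04, 4.80 and 4.64 in mock plants. The day 11 arrays were thus highest in both organs, evenly in leaves and with replicate 1 far above the others in roots.

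In osmotic leaves 11 members rose and 7 fell relative to mock leaves, or 10.3% and 6.54%. Over all probe sets 8.62% were called higher and 12% lower, so the members' shares lay on both sides of the background. With arrays centred on their medians, 12 members were higher and 7 lower, and the background was 11.1% and 9.22%. The largest fall was that of AT1G29660, the GDSL-type lipase gene. It read 10.77, 11.08 and 11.05 in day 11 leaves, 9.04, 7.47 and 8.45 in osmotic leaves and 11.21, 11.12 and 11.34 in mock leaves. It fell by 2.90 ± 0.35 in osmotic leaves (adjusted p = 2e-05), and the osmotic arrays lay far below all others. The related AT5G45670 read 8.21, 8.77 and 8.47 in day 11 leaves, 7.22, 6.66 and 6.72 in osmotic leaves and 8.15, 8.41 and 8.23 in mock leaves, a fall by 1.40 ± 0.21 (adjusted p = 0.00018). AT1G23410, the ubiquitin fusion gene, fell by 1.12 ± 0.19 (adjusted p = 0.00043) and AT4G29020, the glycine-rich protein gene, by 0.86 ± 0.21 (adjusted p = 0.006).

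In the same 4 genes the osmotic root mean lay within 0.4 of the mock root mean, because the rule required it, while the osmotic leaf mean was lower. Single root arrays could lie further off, as osmotic replicate 2 of AT1G29660 did at 5.86, against a mock root mean of 7.01. The difference between the organs was not tested. The other named falls in osmotic leaves, scpl25 (-0.56 ± 0.17, adjusted p = 0.025) and PPR336 (-0.48 ± 0.14, adjusted p = 0.022), were smaller. Without mock leaf replicate 2 or 3 or osmotic leaf replicate 2, the adjusted p of scpl25 was 0.06 to 0.13, and without mock leaf replicate 2 or 3 or osmotic leaf replicate 2 or 3 that of PPR336 was 0.052 to 0.11. Among named members AT2G43550 (0.69 ± 0.23, adjusted p = 0.04), AT3G02120 (0.65 ± 0.20, adjusted p = 0.026) and AT3G59440 (0.60 ± 0.16, adjusted p = 0.01) rose in osmotic leaves. For AT2G43550 and AT3G02120 the adjusted p was 0.058 to 0.2 without mock leaf replicate 1 or 3 or osmotic leaf replicate 2 or 3, and for AT3G59440 it was 0.053 without mock leaf replicate 2. The count of 11 that rose was 7 without mock leaf replicate 1 or 2 and 5 without osmotic leaf replicate 2 or 3.

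Relative to osmotic leaves, 10 members rose and 11 fell in day 11 leaves, or 9.35% and 10.3%, against 9.13% and 7.96% of all probe sets. This comparison shares the osmotic leaf arrays with the one before, and 15 members were called in both. The share of all probe sets called in both is not given, so nothing is read from that count. AT1G29660 rose by 2.64 ± 0.35 (adjusted p = 4.8e-05), AT5G45670 by 1.62 ± 0.21 (adjusted p = 4.5e-05) and AT1G23410 by 1.14 ± 0.19 (adjusted p = 0.00042), so their day 11 leaf values stood near mock. AT3G02120 fell by 1.09 ± 0.20 (adjusted p = 0.00097) and AT2G43550 by 0.92 ± 0.23 (adjusted p = 0.01). Smaller calls were AT4G29020 (0.69 ± 0.21, adjusted p = 0.029), scpl25 (0.53 ± 0.17, adjusted p = 0.039), PPR336 (0.53 ± 0.14, adjusted p = 0.015) and AT4G02800 (-0.63 ± 0.19, adjusted p = 0.027).

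Several calls depended on single arrays or on the processing. With the leaf arrays fitted alone, the adjusted p was 0.093 for AT3G02120 and 0.051 for scpl25 in osmotic against mock, and 0.074 for scpl25 and 0.074 for AT4G02800 in day 11 against osmotic. In day 11 against osmotic leaves, scpl25 had 0.052 with arrays centred on their medians and 0.051 after quantile normalisation over all arrays. Array weights gave 0.057 for AT4G29020 and 0.063 for AT4G02800. Leaving out osmotic leaf replicate 1, 2 or 3 or day 11 leaf replicate 1 or 3 gave AT4G29020 an adjusted p of 0.052 to 0.13. AT4G02800 had 0.063 to 0.15 without osmotic leaf replicate 1 or 2 or day 11 leaf replicate 1, and scpl25 had 0.068 to 0.17 without osmotic leaf replicate 1 or 2 or day 11 leaf replicate 2 or 3. AT2G43550 and PPR336 had 0.058 and 0.071 without osmotic leaf replicate 3, and PPR336 had 0.072 without day 11 leaf replicate 2. The count of 10 that rose was 5 without osmotic leaf replicate 2, and the count of 11 that fell was 6, 7 and 7 without osmotic leaf replicate 2, osmotic leaf replicate 3 or day 11 leaf replicate 1.

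Among members without a single gene, 6 probe sets both rose in osmotic leaves relative to mock and fell in day 11 leaves relative to osmotic leaves. Probe set 261428_at read 5.36, 4.99 and 5.23 in day 11 leaves, 7.26, 7.58 and 7.81 in osmotic leaves and 5.71, 5.65 and 5.71 in mock leaves. In roots the same probe set read 7.48, 8.58 and 8.17 at day 11, 5.93, 6.53 and 4.90 in osmotic and 5.66, 5.62 and 5.38 in mock plants. Thus its leaf signal was highest under mannitol, with no overlap, and its root signal highest a day later. Relative to mock, osmotic leaves were higher by 1.86 for 261428_at, 1.67 for 263320_at, 1.42 for 259383_at, 1.41 for 259609_at, 1.12 for 253660_at and 0.91 for 248230_at, and day 11 leaves were lower than osmotic leaves by a log2 difference of -2.36, -2.18, -1.50, -1.45, -1.21 and -0.94 in the same order. These 6 were singled out after their values were seen. The share of all probe sets with both calls is not given, so nothing is read from their number. Counted over all members, day 11 and mock arrays lay apart in opposite directions in roots and leaves in 10 (9.35%, against 2.08% of all probe sets), osmotic and mock arrays in 3 (2.8%, against 3.53%) and day 11 and osmotic arrays in 14 (13.1%, against 2.63%). The rule fixed the root side of the first and, for most members, of the last of these counts, so nothing is read from them.

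**Figure D4:**
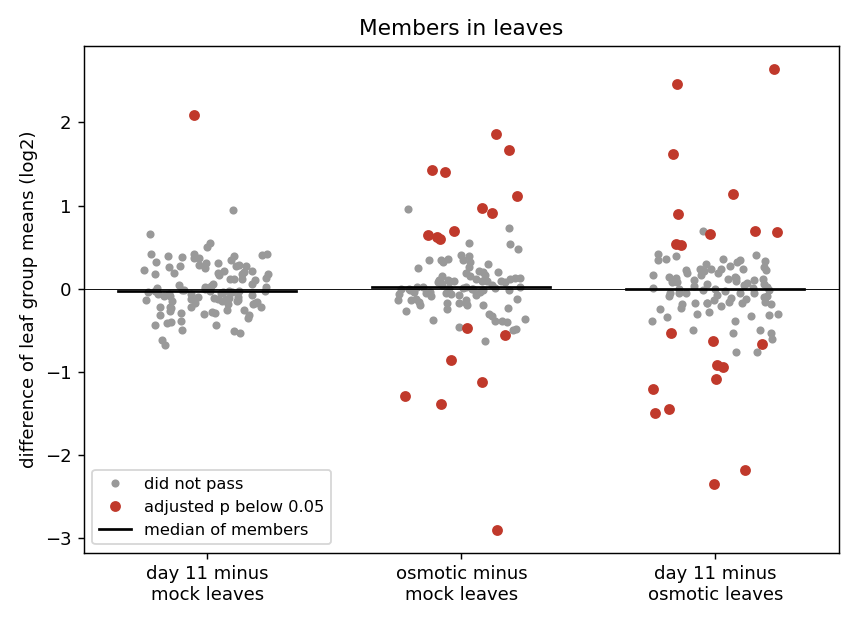
Difference of leaf group means (log2) for each of the 107 members in day 11 minus mock, osmotic minus mock and day 11 minus osmotic leaves, red where the limma adjusted p was below 0.05 and grey otherwise, with a bar at the median. A single member passed in the first comparison (2.09), against 18 and 21 in the others.

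**Figure D5:**
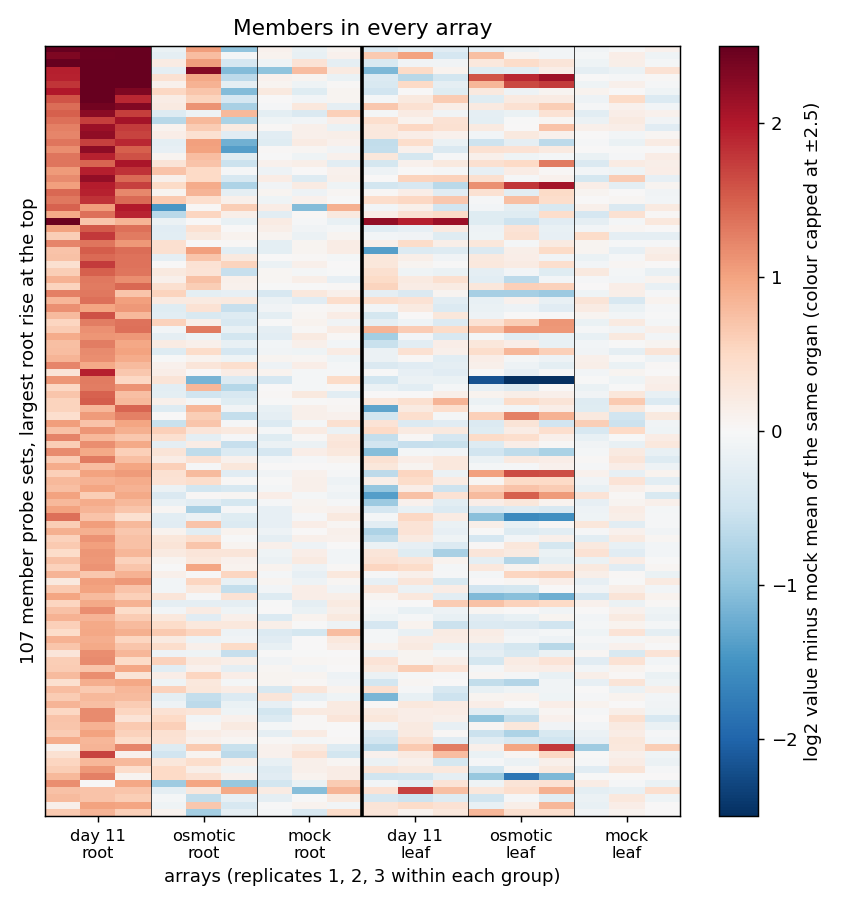
Log2 value of each member (rows, ordered by root difference) in every array (columns) minus the mock mean of the same organ, red above and blue below mock, with colour capped at 2.5. Day 11 roots are red almost throughout, strongest in replicate 2, osmotic roots are mixed between replicates, and leaves carry few strong rows, such as the blue one of AT1G29660 in osmotic leaves.

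Chromosomal neighbours were compared in the order of loci in the RefSeq table. Of the 53 nuclear members, 3 pairs were direct neighbours: AT1G19530 with AT1G19540, AT2G30660 with AT2G30670, and scpl25 (AT3G02110) with AT3G02120. Another 48 direct neighbours were measured and were no members. Their median difference between day 11 and mock roots was 0.05, and 4 of them (8.33%) reached 0.7, against 1.97% of all genes, members included. By the rule, a gene that reaches 0.7 and is no member lies outside the osmotic window. Those 4 lay above it. AT2G18360, next to the lipid transfer gene AT2G18370, was 2.20 above mock in day 11 roots and 0.87 in osmotic roots. AT2G43530, in the trypsin inhibitor cluster, was 1.05 above mock in day 11 roots and 2.00 in osmotic roots. AT5G37980 beside AT5G37970 (1.10 and 0.56) and AT5G44400 beside AT5G44390 (1.42 and 1.36) were the others. No test was made of this share, and ATH1 probes of tandem copies can detect each other's transcripts.

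Other genes of the families and pathways were taken from lists. The 19 lists covered root and stress pathways, among them nitrate uptake, iron deficiency, dehydration and abscisic acid, and proline turnover. Of their 302 loci, 55 had a dedicated probe set in the annotation, and 0 of these 55 were members. The annotation gave 1 gene to 13513 of 22746 probe sets, so most listed loci could not be placed. As 49 members have no single gene, a listed locus among them would be missed. Of 31 families read from gene symbols, 4 held a member. Only 1535 of 13286 genes with a dedicated probe set have a symbol other than the locus name, so this count misses genes. Among the genes placed in such families above, those that the search did not find include AT5G39130, AT2G18370, AT3G16280, AT2G43535 and AT2G43550. It also missed the glycosyltransferases AT2G16890 and AT1G50580. In day 11 against mock roots, 2.9% of 13228 genes that were no members passed as higher in limma and 3.8% as lower. Besides the members UGT73B1 and UGT88A1, 41 measured UDP-dependent glycosyltransferases were found by symbol. Of these, 3 (7.32%) passed as higher and 1 (2.44%) as lower, with a median difference of 0.07. In osmotic against mock roots 10 of the 41 (24.4%) passed as higher and 6 (14.6%) as lower. The shares of genes that were no members were 9.29% and 12.8%. Besides JAL33, 1 of 3 other jacalin lectins passed as higher in day 11 against mock roots (median 0.49). In osmotic against mock roots 1 of the 3 passed as higher (median 0.72). For day 11 against mock roots the 3 other subtilases had a median of -0.15 and the 3 other pectin-modifying enzymes one of 0.21. Either family had 0 calls in limma and 0 at an unadjusted p below 0.05 there. Of the 5 measured genes of dehydration and abscisic acid, 3 passed as higher in osmotic against mock roots (median 1.03), against 9.29% of genes that were no members. In day 11 roots 0 of these 5 were called (median 0.14), and 1 was higher and 1 lower without adjustment.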

How the data were processed

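The authors deposited log2 expression values as 1 table of 22810 probe sets and 18 arrays. Per the labels' protocols, total RNA was hybridised to Affymetrix ATH1 arrays, with 3 biological replicates per group. Summarisation and normalisation are not given in the sources used here. From the range of 2.38 to 13.9, base 2 was inferred for the logarithm. Array medians lay between 6.55 and 6.69, and no further normalisation was applied. The 64 control probe sets were left out.

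The extract description names recovery leaf and root samples, and the day 11 label was taken to mark them. All arrays entered a single limma 3.58.1 model (R 4.3.3) of 6 group means, followed by eBayes with trend. The p-values were adjusted by Benjamini-Hochberg over all 22746 probe sets, with an adjusted p of 0.05 as threshold. In simulated data of 22746 probe sets, 67, 67 and 66 changed by log2 0.5, 1 and 2. The fit found 29.9%, 79.1% and 100% of these changes for day 11 against mock leaves. It found 25.4%, 88.1% and 100% for osmotic against mock, and 32.8%, 82.1% and 100% for day 11 against osmotic. In the same order, 4.14%, 5.33% and 3.38% of the calls were false. The real data had far more calls in osmotic against mock (1960 higher, 2734 lower) and day 11 against osmotic leaves (2077 and 1811). The shares found need not carry over to these comparisons, as the adjustment depends on how many probe sets change. Array data have no read depth.

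Genes were named through the platform annotation and the RefSeq table of assembly TAIR10.1, used for names and locus order. As no build is given with the values, no coordinates are printed. The members, gene lists and the rule for named genes were chosen with earlier results of these data known. That rule took members with 1 gene: the 15 largest root differences, the 4 largest leaf calls in each direction and comparison, the members nearest each threshold, neighbouring members, and the 6 with the highest mock leaf means and the 6 with the largest root excess. The role groups were assigned after the members were seen, and genes outside the rule are named to complete them. Alternatives were other scalings, array weights, leaf arrays alone, a replicate block, dim probe sets left out, other thresholds, group medians and each array left out.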

Additional observations from a re-analysis of the deposited data

Results flagged for a closer look

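In these members every array of the first group lay on one side of the second group in roots and on the opposite side in leaves. The difference between the organs was not tested, because the members were chosen on the root arrays, which fixed the root direction for most of them.

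For day 11 against mock this held for 10 members (9.35%, against 2.08% of all probe sets), each higher in day 11 roots. Relative to mock leaves, the day 11 leaf mean differed by -0.68 for JAL33, -0.62 for AT4G02800, -0.54 for AT4G29270 and -0.26 for AT1G29660. Among probe sets without a single gene the leaf difference was -0.51 for 263320_at, -0.50 for 261428_at, -0.42 for 257714_at, -0.32 for 252562_s_at, -0.30 for 249600_s_at and -0.29 for 248855_at. None of these leaf differences passed the adjusted p threshold of 0.05 in limma.

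For day 11 against osmotic it held for 14 members (13.1%, against 2.63% of all probe sets), again each higher in day 11 roots. Day 11 leaves differed from osmotic leaves by -1.09 for AT3G02120, -0.76 for AT2G43535, -0.63 for AT4G02800, -0.50 for AT4G29270 and -0.34 for AT1G50580. The differences of probe sets without a single gene were -2.36 for 261428_at, -2.18 for 263320_at, -1.45 for 259609_at, -1.21 for 253660_at, -0.67 for 261159_s_at, -0.60 for 266996_at, -0.53 for 251229_at, -0.50 for 259548_at and -0.16 for 249600_s_at.

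For osmotic against mock it held for 3 members (2.8%, against 3.53% of all probe sets), all inside the root window. AT3G02120 was -0.34 in osmotic roots and 0.65 in osmotic leaves relative to mock. SBT1.3 was 0.17 in osmotic roots and -0.39 in osmotic leaves, and probe set 256673_at was 0.33 in osmotic roots and -0.40 in osmotic leaves.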

How the results depend on the processing

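Group sizes of 3 arrays limit what follows. The number of members depended on the thresholds: 41 with a rise of at least 1 and 49 with an osmotic window of 0.2, against 107. It was 129 with arrays centred on their medians, 124 and 120 after quantile normalisation over all arrays and within each organ, 135 with group medians and 85 without dim probe sets, with 91, 97, 98, 80 and 85 of the 107 shared. Leaving out 1 root array gave 86 to 143. In leaves, array weights gave 3 members higher and 1 lower for day 11 against mock and 6 lower for day 11 against osmotic. Without 1 leaf array, day 11 against mock had 1 higher and 0 to 2 lower, osmotic against mock 5 to 15 higher and 5 to 8 lower, and day 11 against osmotic 5 to 10 higher and 6 to 11 lower. Of 251 repeats of the named leaf calls, 211 stayed on their side of the threshold, 40 passed it no longer and 0 turned direction. All other settings stayed within 1.5 times the given counts of members. Centring on medians moved the share of higher among all leaf calls to 77%, against 66.1%, for day 11 against mock, and to 54.5%, against 41.8%, for osmotic against mock, while the members' counts were 1 higher and 0 lower, and 12 and 7. Among all probe sets, array weights called 783 higher and 732 lower for day 11 against mock, and the leaf arrays alone called 54 and 13, against 164 and 84.

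Replicate numbers were checked for pairing. Deviations of arrays with the same number correlated at -0.289 to 0.346 in leaves and -0.113 to 0.17 in roots. With different numbers the correlations were -0.377 to 0.416 in leaves and -0.288 to 0.273 in roots. These overlapping ranges do not settle whether the numbers pair samples, and the main model used no pairing. Among all probe sets, a replicate block called 242 higher and 103 lower in day 11 against mock leaves, against 164 and 84. With a replicate block, day 11 against mock leaves gave 1 member higher and 0 lower, osmotic against mock 11 and 7, and day 11 against osmotic 10 and 11. The block took AT2G43550 in osmotic leaves to an adjusted p of 0.054 in limma.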
